A study of Drosophila melanogaster with 35 samples.

Results

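The transcripts of 6 core circadian clock genes, per (period), tim (timeless), Clk (Clock), cry (cryptochrome), vri (vrille) and Pdp1 (PAR-domain protein 1), were examined in adult male Drosophila melanogaster that had been aged or exposed to a stress. The members were all probe sets that match 1 gene and carry 1 of these 6 symbols in the platform annotation. They came to 6 of 10844 genes represented and 8 of 12443 probe sets that match 1 gene: 3 for tim and 1 for each of the other genes. tim and vri lie on chromosome arm 2L, Clk and Pdp1 on 3L, cry on 3R and per on the X chromosome.

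RNA of whole flies was hybridised to 35 Affymetrix DrosGenome1 arrays in 8 groups. By the study's methods all flies had the genotype w[1118];rtTA(3)E2/+, from a cross of Oregon-R males with virgins of a transgenic strain, so that controls and treated flies alike carried the rtTA insertion. In the aging study, 6 arrays of young controls aged 10 days were set against 4 arrays of old flies aged 61 days, and against 6 arrays of hyperoxia flies that had spent 5 days in 100% oxygen from the age of 3 days and were 8 days old. In the stress study, 4 arrays of stress controls aged 9 days were set against 3 of heat stress (37 degrees for 5.5 h in sucrose vials, aged 9 days), 4 of ionizing radiation (5666 rads per hour for 16 h, then 2 days in 1% sucrose), 4 of hydrogen peroxide (2 days on sucrose with 3% of the agent) and 4 of sugar (2 days on 1% sucrose alone). The last 3 groups were 11 days old. Each array of a stress treatment came from 1 vial of 25 flies. The labels do not say so for the aging study, and no vial size is recorded for the stress controls. By the study's methods the flies that served as controls for sugar were on standard food, whereas the protocol in the labels names the stress controls beside the treated flies where it describes the sucrose vials. The labels give neither the light cycle nor the hour at which flies were collected. Since the sugar flies share age and sucrose vials with the irradiated and the peroxide flies, those 2 treatments were also compared with sugar.

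In the fly clock, the CLK and CYC proteins bind as a pair to E-box sequences and switch on per, tim, vri and Pdp1. PER and TIM accumulate at night, enter the nucleus and block CLK and CYC. A second loop acts on Clk itself, with VRI repressing and PDP1 activating its transcription, and CRY is a blue-light receptor that leads to the breakdown of TIM. As background, per, tim and vri RNA peak around early night (evening phase), whereas Clk and cry RNA peak near dawn (morning phase). The clock runs in the brain and also in the eyes, fat body, gut, Malpighian tubules and testis, so that a whole-fly sample averages many clocks. In such samples, fewer cells of a type and less RNA per cell cannot be told apart.

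Hyperoxia was accompanied by higher vri and lower Clk and tim, heat stress by higher Clk and lower tim and cry, and ionizing radiation by lower cry. Hydrogen peroxide was accompanied by higher vri and aging by lower Clk. The tim change in hyperoxia, and a lower tim in hydrogen peroxide against sugar, were called on 1 of the 3 tim probe sets. Following the nested F-test, the FDR of 1% and the 1.5-fold limit for comparisons in the study's methods, a probe set was called where it passed such a test over 6 contrasts, a span chosen here, with a change of at least 1.5-fold. In the 2 contrasts against sugar it was called at an adjusted p under 0.01 with the same fold. The clock probe sets called were 1 of 8 in aging, where 13.5% of the 12443 probe sets that match 1 gene were called, 3 after hyperoxia (7.44%), 4 after heat (12.6%), 1 after radiation (14.6%), 1 after peroxide (17.2%) and none in sugar (4.97%). In sugar, cry, vri, tim and Clk had log2 fold changes of -0.22, -0.45, 0.29 and 0.35, and vri, Clk, tim and the tim probe set 151485_s_at had an unadjusted p under 0.05. Against sugar, 2 of 8 were called in ionizing radiation (13.1%) and 2 in hydrogen peroxide (14.4%). The shares in aging, radiation and peroxide are near the background, and those in hyperoxia and heat stress lie above it, in a list too short to say more. With 1 array left out at a time, the count was 2 to 4 in hyperoxia and 3 to 4 in heat stress. Over the 6 genes, the median log2 fold change was -0.055 in hyperoxia and -0.36 in heat stress, beside 0.015 and 0.0044 over all genes, with members above and below 0 in both.

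**Figure D1:**
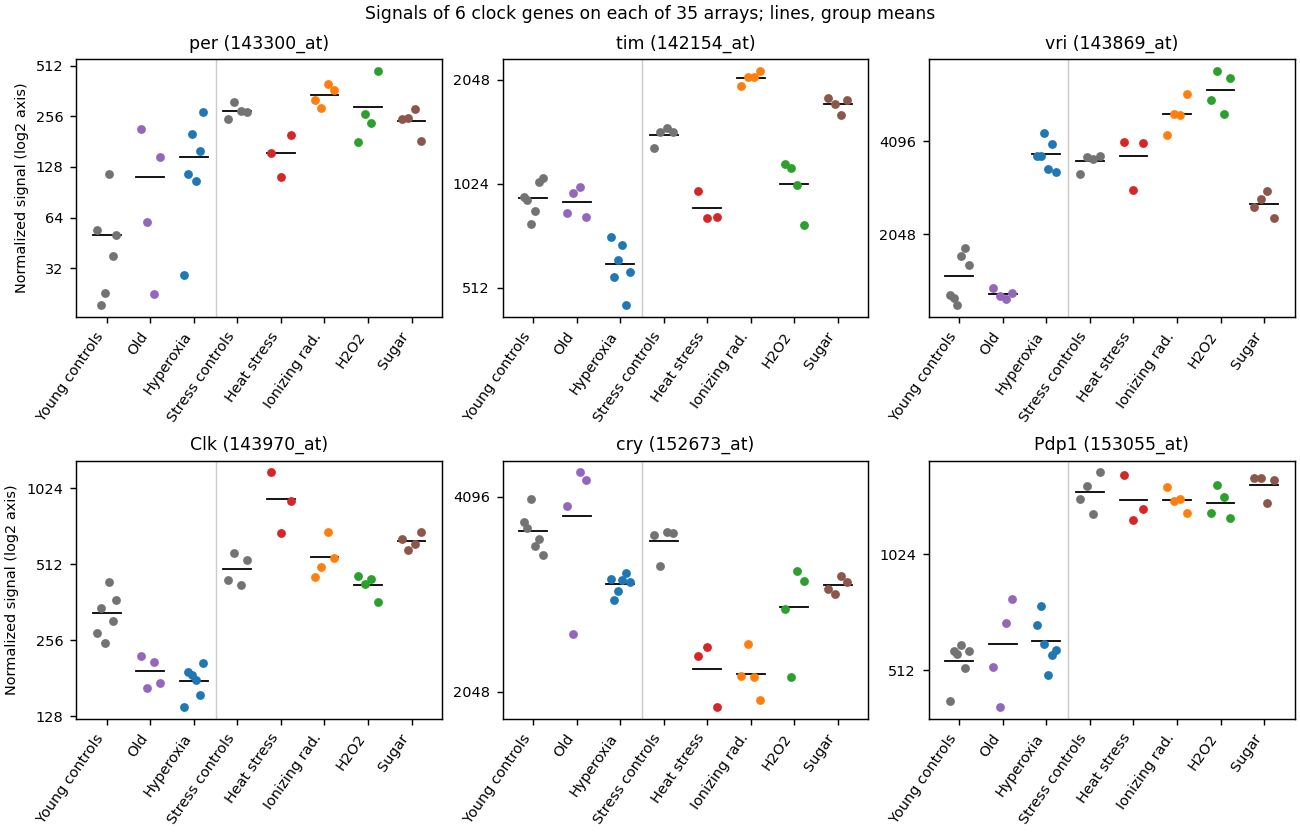
Normalized signal (log2 axis) of the main probe set of each of the 6 clock genes on 35 arrays, by group, with points for arrays and lines for group means; the grey vertical line parts the aging study from the stress study. vri in hyperoxia, Clk in heat stress and cry in ionizing radiation lie wholly apart from their controls.

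The group values lay wholly apart, with no array of one group inside the range of the other, for 1 of the 8 clock probe sets in aging (17.8% of all probe sets that match 1 gene), 4 after hyperoxia (10.7%), 5 after heat (32.9%), 3 after radiation (26.9%), 5 after peroxide (30.9%) and 5 in sugar (23.6%). Against sugar the count was 4 for ionizing radiation (28.7%) and 4 for hydrogen peroxide (30.3%). Levels are quantile-normalized array signals, and changes are on the log2(signal + 34.1) scale, which understates changes at low signal. Signals of different probe sets cannot be set against each other. The ratio of the 3' to the 5' actin probe sets, a sign of RNA quality, was highest in old replicate 2 (283), followed by ionizing radiation replicate 1 (7.44) and the remaining 33 arrays (1.48 to 7.09). It was 2.65 to 3.51 on the sugar arrays, wholly above the stress controls (1.48 to 1.99). Heat stress was at 1.68 to 1.99, peroxide at 1.88 to 2.34 and radiation replicates 2 to 4 at 1.79 to 1.89. The same ratio for GAPDH was 1.98 to 2.19 in sugar and 2.07 to 2.24 in the stress controls. The part of RNA quality in the contrasts with sugar was not tested. The 2 studies differed in the signal of 18S rRNA, 8.44 to 56.6 on the aging arrays and 554 to 15693 on the stress arrays, and in the clock genes themselves. For example, mean per signal was 50.1 in young controls and 276 in stress controls. Study and group cannot be told apart there, so no comparison was made across the studies.

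tim encodes the light-sensitive partner of PER. Its main probe set, 142154_at, was measured at 780.1 to 1064 (median 928) in the 6 young controls, at 455 to 718 (median 592) in hyperoxia and at 842, 959.6, 999 and 819 in old flies. All hyperoxia arrays lay below all young controls, while old and young overlapped. The change was -0.62 ± 0.10 (SE) in hyperoxia (adjusted p = 3.03e-05), a 1.54-fold drop, and -0.038 ± 0.11 (SE) in aging (adjusted p = 0.86). The drop lay close to the 1.5-fold limit, and without young control replicate 6 (-0.58) or hyperoxia replicate 5 (-0.55), or with a larger pseudocount (-0.56), it fell short of it.

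In the stress study, tim was at 1296, 1445, 1480.5 and 1444 in the controls, at 978, 814 and 818 in heat stress, at 1164, 1135, 1014 and 775 in hydrogen peroxide, at 1960.5, 2080.2, 2085 and 2172 in ionizing radiation and at 1816, 1741, 1622 and 1788 in sugar. The heat and peroxide arrays all lay below the controls, and the radiation and sugar arrays all lay above them. In heat stress tim was 1.61-fold lower (log2 fold change -0.69, SE 0.13, adjusted p = 0.000309). In hydrogen peroxide the change against the controls was -0.47 ± 0.12 (SE) with an adjusted p of 0.00383, short of 1.5-fold, whereas against sugar it was -0.77 ± 0.12 (SE) and was called (adjusted p = 1.48e-05). In ionizing radiation tim differed from the controls by 0.54 ± 0.12 (SE) (adjusted p = 0.00128), a 1.45-fold rise below the limit, and from sugar by 0.25 ± 0.12 (SE) (adjusted p = 0.16). The order of the means was thus radiation, sugar, controls, peroxide and heat. Of these neighbours, radiation and sugar, sugar and controls (adjusted p = 0.145), and peroxide and heat (log2 difference 0.21, adjusted p = 0.277) did not differ at an adjusted p under 0.01.

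The other tim probe sets are probe sets of the same gene and not further genes. 151485_s_at was at 735, 920.4, 747 and 894 in the stress controls and at 283, 342 and 321 in heat stress, and it fell with the main probe set, by more (log2 fold change -1.29, SE 0.33, adjusted p = 0.00459). In sugar it was at 429, 390.3, 387 and 495, all below the controls (log2 fold change -0.90, SE 0.31, adjusted p = 0.059), where the main probe set was higher. These 2 probe sets thus gave opposite signs in sugar, neither of them called. In ionizing radiation 151485_s_at was at 414, 1255, 1229 and 1108, with replicate 1, the array with the actin ratio of 7.44, far below the other 3 and inside the range of sugar. It was called against sugar (log2 fold change 1.06, SE 0.31, adjusted p = 0.00986). The call grew without replicate 1 (1.43) and was lost without any 1 of the other 3 radiation arrays or of the 4 sugar arrays. In hydrogen peroxide it was at 419, 509.7, 422 and 489.7, below the controls (log2 fold change -0.80, SE 0.31, adjusted p = 0.0493). Against sugar, where the main probe set was called down in peroxide, 151485_s_at overlapped (log2 fold change 0.11, SE 0.31, adjusted p = 0.853) and 151484_i_at lay above (log2 fold change 0.72, SE 0.38, adjusted p = 0.174), so that both had the opposite sign, uncalled. In hyperoxia, too, the other probe sets did not share the sign of the main one (0.10 and 0.092, uncalled). In young controls, hyperoxia and old flies 151485_s_at spanned 75.7 to 244 (median 119), 67.2 to 229 (median 152) and 174, 187, 170.3 and 52.7, with overlap throughout. The third probe set, 151484_i_at, lay below the pseudocount on 21 of 35 arrays and was called in no contrast. Its arrays ran from 1.76 to 138, with 2 old arrays at 137 and 138 and the other 2 at 5.06 and 40.6. In aging it was called when old replicate 2 was left out (1.56).

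**Figure D2:**
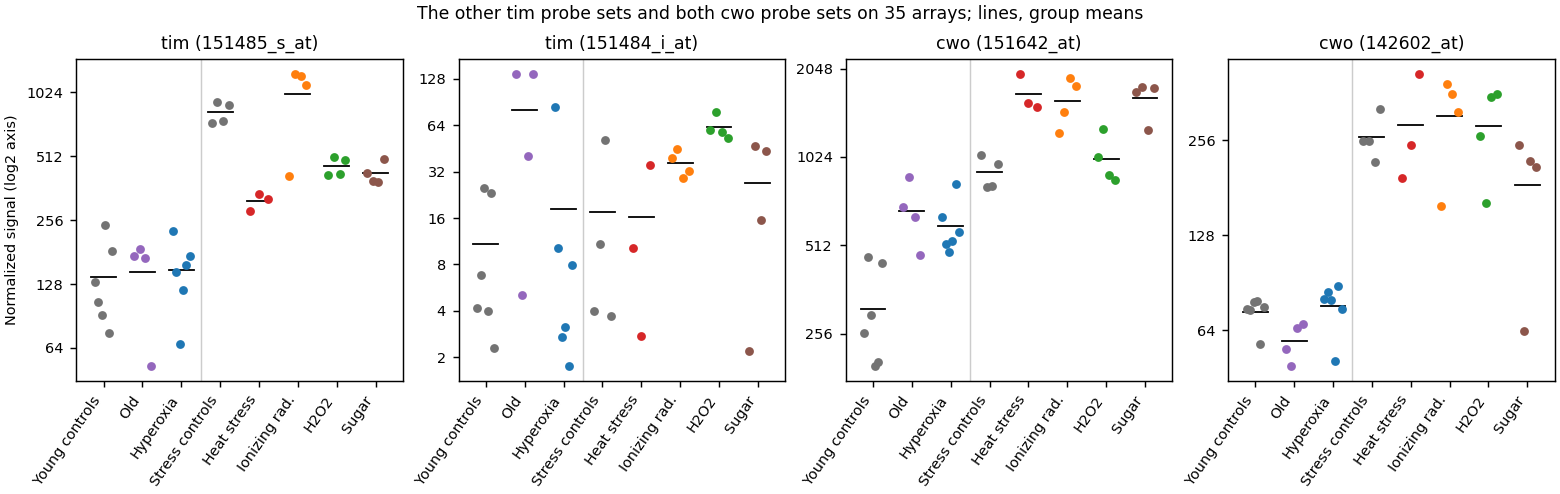
Normalized signal (log2 axis) of the other tim probe sets and of both cwo probe sets on 35 arrays, by group, with points for arrays and lines for group means. 151484_i_at scatters at low signal, and 151642_at of cwo lies above its controls in 5 of the 6 groups set against controls, with overlap in hydrogen peroxide.

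per, the other repressor of the loop, had a low signal on these arrays. It was at 19.3 to 117 (median 44.0) in young controls, at 29.2 to 269.9 (median 137) in hyperoxia and at 215, 60.2, 22.4 and 146 in old flies, and both groups overlapped the young controls. The means were 50.1 ± 35.5 (SD, n = 6), 146 ± 83.3 (SD, n = 6) and 111 ± 86.6 (SD, n = 4). Neither change was called: hyperoxia gave 1.04 ± 0.31 (SE) (adjusted p = 0.0206) and aging 0.65 ± 0.35 (SE) (adjusted p = 0.191). Hyperoxia replicate 1, at 29.2, decided this, since without it per was called in hyperoxia (1.31, adjusted p = 0.0016). In the stress study per was at 247, 312, 275 and 270.1 in the controls and at 155, 111 and 198 in heat stress, where all 3 arrays lay below all 4 controls with a change that did not pass (log2 fold change -0.74, SE 0.41, adjusted p = 0.237). It was at 321, 287, 396 and 364 in ionizing radiation, 179.6, 264, 234 and 476 in hydrogen peroxide and 245, 249, 281 and 181 in sugar, overlapping the controls in each. The order of the means was radiation, peroxide, controls, sugar and heat by signal, and no pair of the 5 stress groups differed at an adjusted p under 0.01.

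Clk encodes the activator of the loop. Its signal was 250.3 to 435 (median 324) in young controls, 139 to 207 (median 182) in hyperoxia and 222, 166, 209.9 and 174 in old flies, so that every hyperoxia and every old array lay below every young control. Clk was down-regulated 1.71-fold in hyperoxia (log2 fold change -0.78, SE 0.13, adjusted p = 2.97e-05) and 1.59-fold in aging (log2 fold change -0.67, SE 0.14, adjusted p = 0.000556), and the difference between old and hyperoxia flies did not pass the test (log2 difference 0.11, adjusted p = 0.647). Without old replicate 2 and ionizing radiation replicate 1 the aging value was -0.61 and still called. With a larger pseudocount (-0.53) or a fit of only young and old arrays (adjusted p = 0.0126) it was not called.

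In heat stress the direction was the other one. Clk was at 445, 568, 422 and 534 in the stress controls and at 1185, 681 and 911 after heat, all above, a 1.79-fold rise (log2 fold change 0.84, SE 0.17, adjusted p = 0.000395; adjusted p = 0.0221 in a fit of these 2 groups alone). It was at 455, 498, 686 and 541 in ionizing radiation and 459.8, 428, 446 and 364 in hydrogen peroxide, overlapping the controls, and at 646, 583, 618 and 689 in sugar, above the controls without passing the test (log2 fold change 0.35, SE 0.16, adjusted p = 0.167). Peroxide lay below sugar on all arrays (log2 fold change -0.55, SE 0.16, adjusted p = 0.00846), short of 1.5-fold. The order of the means was heat, sugar, radiation, controls and peroxide. None of these neighbours differed at an adjusted p under 0.01, heat and sugar included (log2 difference -0.49, adjusted p = 0.0307). cyc, the partner of CLK, whose RNA is known for cycling little or not at all, was called in no contrast. Its log2 fold changes ran from -0.39 in heat stress to 0.32 in ionizing radiation, and heat replicate 3, at 362, stood above the other 2 heat arrays at 173 and 165. Without it cyc was called in heat stress (-0.72).

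**Figure D3:**
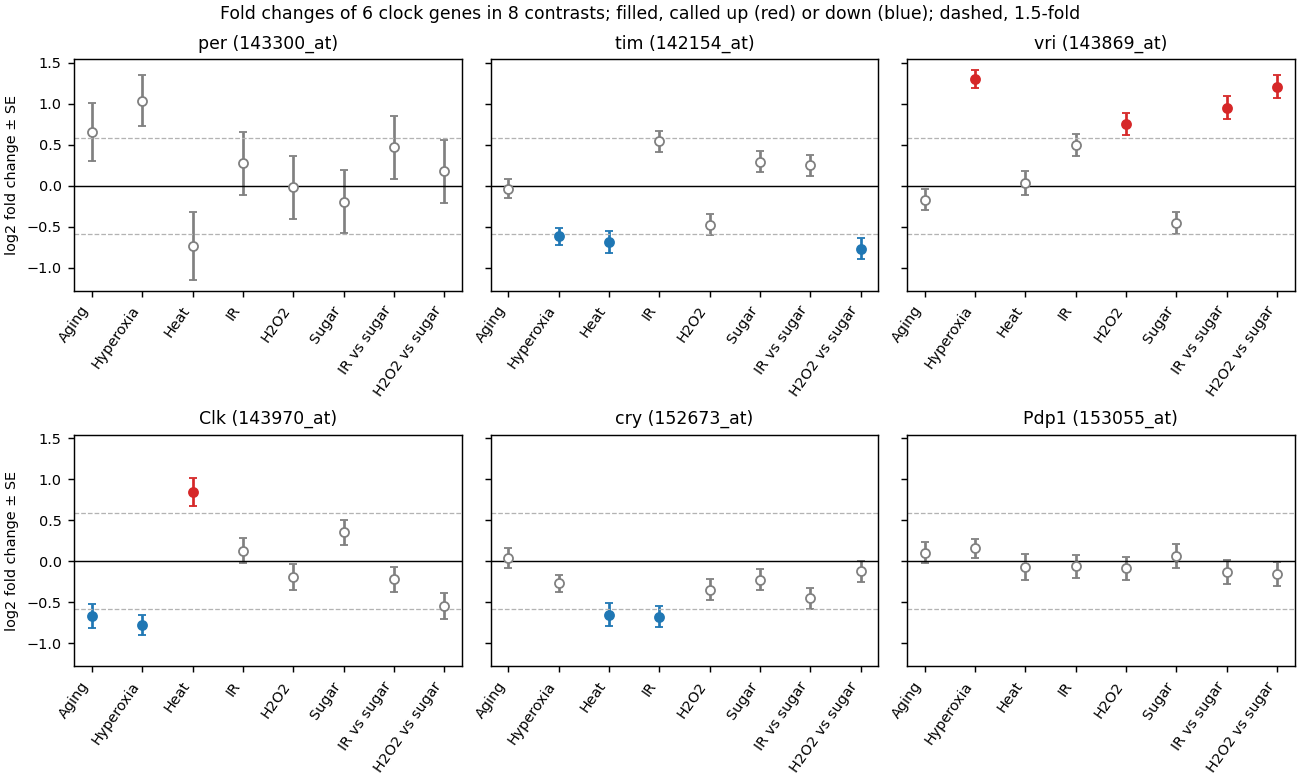
log2 fold change ± SE of the main probe set of each clock gene in 8 contrasts, with filled red (up) or blue (down) points where called, open grey points otherwise, and dashed lines at 1.5-fold. Clk is down in aging and hyperoxia and up in heat stress, vri is up in hyperoxia and hydrogen peroxide, and Pdp1 lies within 0.16 of 0 in every contrast.

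vri, the repressor of the second loop, showed the largest rise called among the clock probe sets. It was at 1207 to 1851 (median 1469) in young controls and at 3273 to 4352 (median 3665) in hyperoxia, with every hyperoxia array far above every young control, a 2.46-fold rise (log2 fold change 1.30, SE 0.11, adjusted p = 1.64e-10). In old flies it was at 1372, 1296, 1268 and 1321, inside the range of the young controls (log2 fold change -0.17, SE 0.13, adjusted p = 0.371). The main tim probe set and vri, both of genes switched on by CLK and CYC, thus had opposite signs in hyperoxia. The other tim probe sets gave 0.10 and 0.092, uncalled. The change of vri was called in every alternative tried, and that of tim 142154_at was not.

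In the stress study vri was at 3215, 3658, 3601 and 3672 in the controls, 5579, 6935, 5019.7 and 6549 in hydrogen peroxide, 4283, 5012, 4998 and 5819 in ionizing radiation, 4093, 2855 and 4038 in heat stress and 2511, 2660.2, 2827 and 2306 in sugar. All peroxide and radiation arrays lay above the controls and all sugar arrays below them. In hydrogen peroxide vri was 1.68-fold higher than in the controls (log2 fold change 0.75, SE 0.14, adjusted p = 6.25e-05) and 2.31-fold higher than in sugar (log2 fold change 1.21, SE 0.14, adjusted p = 2.93e-08). In ionizing radiation it was 1.93-fold higher than in sugar (log2 fold change 0.95, SE 0.14, adjusted p = 2.43e-06) and less than 1.5-fold higher than in the controls (log2 fold change 0.50, SE 0.14, adjusted p = 0.00678). The sugar flies lay lower than the controls (log2 fold change -0.45, SE 0.14, adjusted p = 0.0321), and heat stress gave 0.033 ± 0.15 (SE). The order of the means was peroxide, radiation, heat, controls and sugar. Of these neighbours none differed at an adjusted p under 0.01: radiation and heat had an adjusted p of 0.0171, peroxide and radiation of 0.214.

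Pdp1, the activator of Clk in the second loop, was called in no contrast. It was at 427 to 595 (median 569) in young controls, at 499 to 752 (median 589.8) in hyperoxia and at 521, 412, 679.8 and 786 in old flies, and in the stress study its groups had means of 1482 ± 158 (SD, n = 4) in the controls, 1416 ± 205 (SD, n = 3) in heat stress, 1414 ± 90.0 (SD, n = 4) in ionizing radiation, 1391 ± 124 (SD, n = 4) in hydrogen peroxide and 1551 ± 109 (SD, n = 4) in sugar. All groups overlapped their controls. Its log2 fold changes ran from -0.15 to 0.16, with SEs of 0.12 to 0.15. Pdp1 has several isoforms, of which not all cycle, and the sources used here do not say which of them this probe set reads.

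cry encodes the blue-light receptor. It was at 3330.0 to 4069 (median 3599.9) in young controls and at 2841 to 3122 (median 3038) in hyperoxia, all below, with a change too small for a call (log2 fold change -0.27, SE 0.11, adjusted p = 0.0879). In old flies it was at 3966, 2516, 4468 and 4343, with replicate 2, the array with the actin ratio of 283, below all young controls and the other 3 among or above them. In the stress controls it was at 3573, 3198, 3620.4 and 3601. All arrays of each of the 4 other stress groups lay below them: 2327, 2402 and 1941 in heat stress, 2164, 2429, 2158 and 1989 in ionizing radiation, 2744, 2158, 3144 and 3038 in hydrogen peroxide and 2948, 2899, 3086 and 3028 in sugar. cry was down-regulated 1.57-fold in heat stress (log2 fold change -0.65, SE 0.14, adjusted p = 0.000836) and 1.59-fold in ionizing radiation (log2 fold change -0.67, SE 0.13, adjusted p = 0.000147). Radiation also lay below sugar, by less than 1.5-fold (log2 fold change -0.45, SE 0.13, adjusted p = 0.00951). The values for hydrogen peroxide (log2 fold change -0.35, SE 0.13, adjusted p = 0.0424) and sugar (log2 fold change -0.22, SE 0.13, adjusted p = 0.316) were not called. Without heat stress replicate 3, the lowest array, the heat value was -0.56 and no longer called, and without ionizing radiation replicate 1 and old replicate 2 the radiation value was -0.67. The order of the means was controls, sugar, peroxide, heat and radiation, and none of these neighbours differed at an adjusted p under 0.01.

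cwo (clockwork orange), an E-box repressor that competes with CLK and CYC, is not among the 6 genes and was read by 2 probe sets. 151642_at was at 199 to 467 (median 276) in young controls, at 487 to 826 (median 548) in hyperoxia and at 694, 876, 638 and 475 in old flies, with both groups wholly above the young controls. It was called up in aging (log2 fold change 1.07, SE 0.20, adjusted p = 9.86e-05), hyperoxia (log2 fold change 0.91, SE 0.18, adjusted p = 0.00029), heat stress (log2 fold change 0.87, SE 0.23, adjusted p = 0.00696), ionizing radiation (log2 fold change 0.78, SE 0.22, adjusted p = 0.00712) and sugar (0.81 ± 0.22 (SE); called by the nested F-test, with an adjusted p within the contrast of 0.0142). In fits of only the 2 groups compared it was not called in aging (adjusted p = 0.0151) or hyperoxia (adjusted p = 0.01002). In hydrogen peroxide it gave 0.14 ± 0.22 (SE), and it was not called against sugar in radiation (-0.035) or peroxide (-0.67). The second probe set, 142602_at, was called nowhere, with log2 fold changes from -0.54 in sugar to 0.68 in radiation against sugar, so that the rise of cwo rests on 1 of its 2 probe sets. Without ionizing radiation replicate 1, 142602_at was called in radiation against sugar (0.93).

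Since evening-phase and morning-phase RNAs peak at opposite times of day, the mean log2 value of per, tim and vri minus that of Clk and cry was taken on each array. It sets probe sets against each other, so only its differences between groups can be read, and it was given no test. In the aging study it was -1.54 to -1.05 (median -1.14) in young controls, -0.38 to 0.11 (median -0.15) in hyperoxia and -0.59, -0.51, -1.31 and -0.69 in old flies. Every hyperoxia array lay above every young control, while old flies overlapped the young controls and lay below all hyperoxia arrays. In hyperoxia the mean was 1.10 higher, from evening genes 0.57 higher and morning genes -0.52. Within the evening genes, however, vri (1.30) and per (1.04, uncalled, arrays overlapping) were higher and the main tim probe set (-0.62) lower. The other tim probe sets, which do not enter the mean, gave 0.10 and 0.092, uncalled. In aging the mean was 0.46 higher, from evening genes at 0.15 and morning genes at -0.31, the latter from Clk (-0.67) and not cry (0.042).

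In the stress study the difference was -0.30, -0.17, -0.11 and -0.28 in the controls, -0.88, -0.90 and -0.55 in heat stress, 0.49, 0.40, 0.40 and 0.68 in ionizing radiation, -0.054, 0.42, -0.14 and 0.34 in hydrogen peroxide and -0.38, -0.28, -0.32 and -0.61 in sugar. Heat stress lay wholly below the controls and ionizing radiation wholly above, and the other 2 groups overlapped them. Heat stress was -0.56 from the controls, with evening genes at -0.46 and morning genes at 0.10, where Clk rose and cry fell. Ionizing radiation was 0.71 higher, with tim (0.54), vri (0.50) and per (0.27) above the controls, cry (-0.67) below and Clk (0.13) near them. Of the 6 contrasts with controls, it was the one in which the main probe sets of all 3 evening genes were above 0 and the morning mean below 0. Hydrogen peroxide was 0.36 higher and sugar -0.18, and against sugar the values were 0.89 for radiation and 0.54 for peroxide, both wholly above. By the main probe sets, in no contrast with controls did all 5 genes differ in the sense of one common displacement. In hyperoxia tim (-0.62) was the one exception, and its other probe sets gave 0.10 and 0.092, uncalled. In ionizing radiation the one exception was Clk (0.13, SE 0.16, uncalled, arrays overlapping). Radiation against sugar was the one contrast of the 8 where all 5 main probe sets differed in one such sense. There vri (0.95), per (0.47) and tim (0.25) were above and cry (-0.45) and Clk (-0.22) below. Of these 5 probe sets vri alone was called. The part of collection time in these values was not tested, since the labels give no hour.

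**Figure D4:**
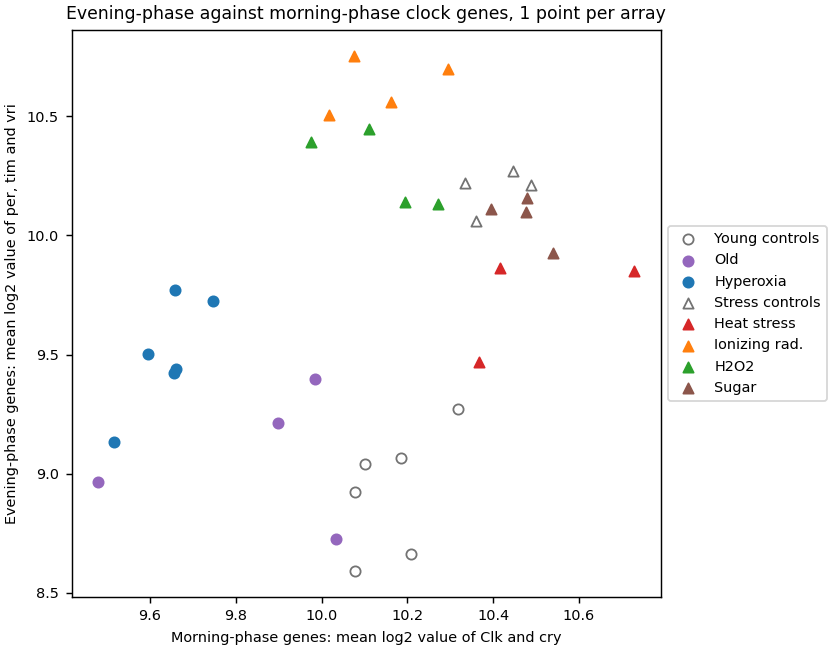
Mean log2 value of the evening-phase genes per, tim and vri against that of the morning-phase genes Clk and cry, 1 point per array (circles, aging study; triangles, stress study; open, controls). Hyperoxia arrays lie to the left of the young controls and 5 of the 6 above all of them, ionizing radiation arrays up and to the left of the stress controls and heat arrays below them.

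Across the 35 arrays, after each study was centred on its mean, r between 2 clock genes ran from -0.50 (vri and cry) to 0.47 (per and vri). It was -0.46 for tim and vri, -0.44 for vri and Clk, -0.13 for tim and per and -0.092 for Clk and cry. These values are a description, since arrays of a group share their treatment. With group means removed too, r was 0.12 for tim and vri, 0.35 for vri and Clk and -0.49 for tim and per. It was then -0.34 for vri and cry, 0.38 for per and vri and -0.11 for Clk and cry. The probe sets most like each member by the same measure were CG2233 (r = 0.89), Men-b (0.81) and CG1208 (0.81) for tim, Zip99C (0.88), MME1 (0.88) and Zasp66 (0.87) for vri, SPE (0.85), Sodh1 (0.85) and CG7882 (0.84) for cry, bun (0.73), Npc2f (0.70) and CG13101 (0.69) for Clk, lost (0.62), cv-d (0.60) and Ubc7 (0.58) for Pdp1, and Sbp2 (0.58), CG10916 (0.56) and Gs1 (0.56) for per. No clock gene was among them. Once group means were removed as well, CG2233 and tim correlated at 0.28, Zip99C and vri at 0.10 and bun and Clk at 0.39. The values were 0.76 for SPE and cry, 0.75 for Sodh1 and cry, 0.65 for lost and Pdp1 and 0.64 for Sbp2 and per. On old replicate 2, the array with the actin ratio of 283, cry was at 2516, beside 3966, 4468 and 4343 on the other old arrays. The part of that array in the correlations with cry was not tested.

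The clock partners were listed for roles with the PER, TIM and CLK proteins or their translation, or at E-boxes, and 18 of 23 were measured. sgg, CkIIalpha, CkIIbeta, mts and nmo were not. Among those measured, the strongest response was that of jet (jetlag), an F-box protein that promotes the light-dependent breakdown of TIM. Its mean signal was 949.8 against 231 in heat stress (log2 fold change 1.89, SE 0.16, adjusted p = 1.14e-10), 508 against 231 in ionizing radiation (log2 fold change 1.03, SE 0.15, adjusted p = 1.89e-06) and 572 against 231 in hydrogen peroxide (log2 fold change 1.18, SE 0.15, adjusted p = 1.21e-07), all arrays above the controls. It was also up against sugar in radiation (0.71) and peroxide (0.87). kay, the fly Fos, rose in heat stress (log2 fold change 1.01, SE 0.23, adjusted p = 0.00139), a call lost without heat stress replicate 1 (0.86, adjusted p = 0.0162). Usp8, which removes ubiquitin from CLK, rose in hyperoxia (0.61, adjusted p = 6.28e-05) and hydrogen peroxide (0.96, adjusted p = 5.03e-07), the former not called without hyperoxia replicate 6 (0.58). In aging, Atx2 (Ataxin-2), which supports PER translation, fell (log2 fold change -0.99, SE 0.17, adjusted p = 2.7e-05), as did CkIIbeta2, a casein kinase 2 beta gene (log2 fold change -0.66, SE 0.12, adjusted p = 8.42e-05). In that contrast 9 of 15 testis markers fell too, where 14.9% of all genes were called. The part of testis in the values of Atx2 and CkIIbeta2 was not tested. Against sugar, calls were also made for Atx2 in radiation (-0.68) and for tws, a subunit of the phosphatase PP2A, in radiation (0.64) and peroxide (0.65), and each was lost on 6 of the 8 arrays left out in turn. For Atx2 these were radiation replicates 1, 3 and 4 and sugar replicates 1, 2 and 3 (-0.69 to -0.63). For tws they were radiation replicates 2, 3 and 4 with sugar replicates 1, 3 and 4 (0.47 to 0.69), and peroxide replicates 1, 2 and 3 with the same sugar replicates (0.51 to 0.69). In fits of the 2 groups alone tws had adjusted p values of 0.0599 and 0.0542, and with scaling to a trimmed mean Atx2 had 0.0119. Counting cwo, the partners called were 3 of 18 in aging (14.9% of 10844 genes were called), 2 after hyperoxia (8.23%), 3 after heat (14.0%), 2 after radiation (16.0%), 2 after peroxide (18.7%) and 1 in sugar (5.06%), and against sugar 3 in radiation (14.5%) and 2 in peroxide (15.6%). These shares are close to the background. The median log2 fold change of the partners ran from -0.13 to 0.30 over the 8 contrasts, beside 0.0044 to 0.050 over all genes.

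Of 18 measured pacemaker peptides, receptors and channel genes, at most 1 was called in any contrast, where 5.06% to 18.7% of all genes were, with medians of -0.10 to 0.35. Dh44, a diuretic hormone of clock output neurons, rose in heat stress from a mean of 107 to 589 (log2 fold change 2.08, SE 0.29, adjusted p = 2.01e-06). Lk (leucokinin) was up in hyperoxia (log2 fold change 0.85, SE 0.19, adjusted p = 0.00151, arrays overlapping). That call was lost without any 1 of young control replicates 1, 2 and 5 and hyperoxia replicates 1, 3, 5 and 6 (0.72 to 0.86), and in a fit of these 2 groups alone (adjusted p = 0.0111). ITP (ion transport peptide) was up in aging (log2 fold change 0.63, SE 0.15, adjusted p = 0.00137) and down in radiation against sugar (-0.79), and Pdfr, the receptor of the PDF peptide, up in peroxide against sugar (0.66), though not without sugar replicate 3 (0.55) or peroxide replicate 4 (0.53). Of 15 measured genes described as rhythmic outputs in heads or bodies, 1 was called in aging (14.9% of all genes), 4 after hyperoxia (8.23%), 3 after heat (14.0%), 3 after radiation (16.0%), 2 after peroxide (18.7%) and none in sugar (5.06%). Against sugar 4 were called in radiation (14.5%) and 3 in peroxide (15.6%), and the medians were -0.32 to -0.0092. Cyp4d21, a cytochrome P450, fell after hyperoxia (-0.73), heat (-1.87), radiation (-1.67) and peroxide (-1.74). Ugt35B1, a glycosyltransferase, fell in hyperoxia (-1.17), radiation (-1.43) and peroxide (-1.26), and both fell against sugar too. Gclm, a subunit of the enzyme that starts glutathione synthesis, fell in radiation (-0.85) and against sugar (-0.98). ple, the tyrosine hydroxylase of dopamine synthesis, fell in hyperoxia (mean signal 379.9 against 753) and Ddc, which acts after it, in heat stress (-0.65; not called without heat stress replicate 2, -0.57). Slob rose in hyperoxia (0.65), Ugt35A1 in heat stress (1.10) and the lipase gene Lip4 in aging (0.61), and Inos rose in radiation (0.84) and Cyp18a1 fell in peroxide (-0.72) against sugar. Of these, the calls were lost for Slob without young control replicate 6 or hyperoxia replicate 3 (0.58 each), for Lip4 without old replicate 1 (0.58) or 2 (0.52) and for Cyp18a1 without sugar replicate 1, 2 or 3 or peroxide replicate 1 or 4 (-0.73 to -0.49).

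**Figure D5:**
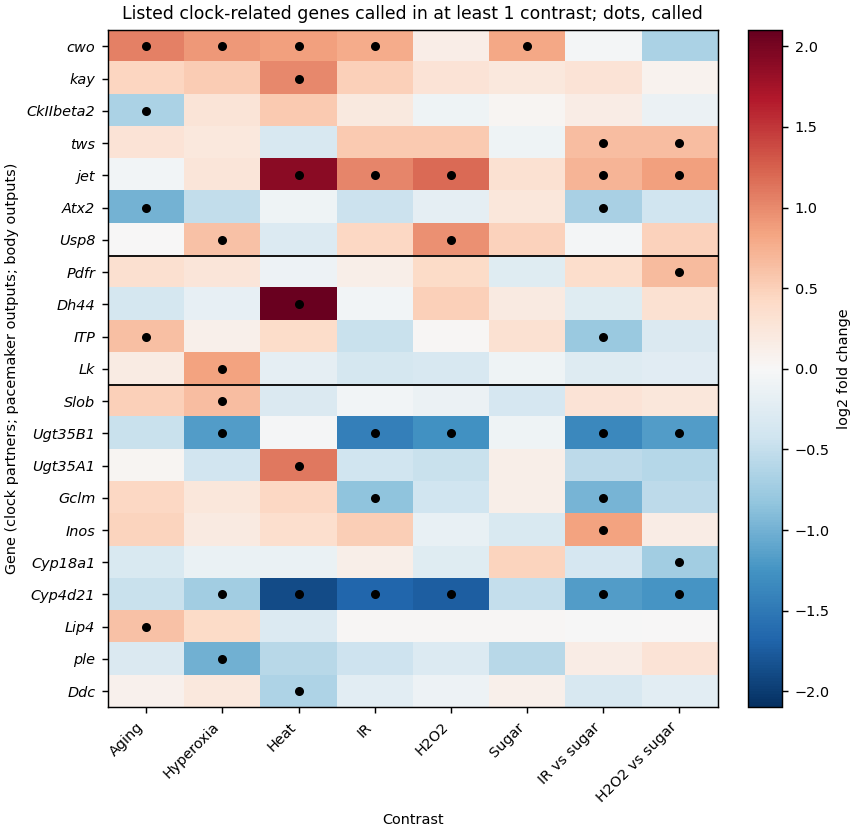
log2 fold change (colour) of the listed clock partners, pacemaker outputs and body outputs called in at least 1 of 8 contrasts, with black dots where called. jet is up in heat stress, ionizing radiation and hydrogen peroxide, and Cyp4d21 is down in these and in hyperoxia.

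Markers of tissues that hold clocks moved with some of these groups. The summed signal of 10 fat body markers was 71503 to 83454 in young controls and 43215 to 52181 in hyperoxia, against 89282 to 93631 in old flies, wholly above the young controls. In the stress study it was 70087 to 86812 in controls, 54218 to 68094 in heat stress, 42982 to 49778 in ionizing radiation, 20778 to 35587 in hydrogen peroxide and 63266 to 68475 in sugar. Of the 10 markers, 4 were called down in hyperoxia (8.23% of all genes were called in either direction), 3 down and 1 up in heat (14.0%), 5 down in radiation (16.0%), 7 down in peroxide (18.7%), 2 down and 1 up in sugar (5.06%) and 1 each way in aging (14.9%). In peroxide apolpp and Tsf1 had log2 fold changes of -2.68 and -2.58. The 13 measured of 21 photoreceptor markers summed to 43278 to 47711 in young controls, 30969.9 to 41259.8 in hyperoxia and 44764 to 53175 in old flies. Their sum was 52613 to 57892 in stress controls, 59913 to 64796 in heat stress and 53733 to 66569 in ionizing radiation. It was 58385 to 61049 in sugar and 67870.1 to 77496 in hydrogen peroxide. Of the 13, 2 were called down in hyperoxia (8.23% of all genes), Arr1 (-0.73) and inaD (-0.82). In peroxide (18.7%) 2 were called up, Arr1 (0.73) and trp (0.70). Aging (14.9%) and radiation (16.0%) had 1 up each, sugar (5.06%) 1 down and heat stress (14.0%) none. The 10 measured neuron markers summed to 3776 to 4700.4 in young controls and 3199.8 to 4070.4 in hyperoxia, with overlap. Vmat (-0.73) was the 1 marker of the 10 called there (8.23% of all genes), and their median log2 fold change was -0.035. In aging (14.9%) and hydrogen peroxide (18.7%) 1 neuron marker each was called down. Of 15 testis markers, 9 were down in aging (14.9% of all genes were called), with sums of 178968 to 200694 in young controls and 105426 to 124659 in old flies. The testis sum lay wholly above the young controls in hyperoxia (221988 to 235086). Among the stress groups it was 160285 to 178494 in controls, with heat stress (187484 to 218920) and ionizing radiation (197736 to 228986) wholly above and sugar (137252 to 156994) wholly below, and 1 testis marker was called in heat stress and none in hyperoxia, radiation or sugar. The 11 measured of 12 female markers, a check on the labelled sex, summed to 3607 to 5333 in young controls and to 5430 to 6306, wholly above, in old flies. In the stress controls, not compared with the aging study, their sum was 2528 to 2889. Yp3 (1.31) was the 1 of the 11 called in aging (14.9% of all genes). In heat stress (14.0%) 2 were up and 1 down, and in peroxide (18.7%) and sugar (5.06%) 1 each was down. None was called in hyperoxia (8.23%) or radiation (16.0%). No photoreceptor marker had a group mean below the pseudocount, 1 fat body marker did in 3 groups, and 1 or 2 neuron markers did in each group of the aging study. The part of these tissues in the clock gene values was not tested.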

How the data were processed

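The arrays measured RNA of whole male flies, 35 in 8 groups taken from the sample labels. The deposited values are linear Affymetrix signal intensities that the authors made with MAS5 (version not given in the sources used here), scaled to a trimmed mean of 992 to 995 on 31 arrays and 106 to 166 on the 4 sugar arrays. The number of arrays limits the precision. Here 44 control probe sets were left out of 14010, log2 signals were quantile-normalized, returned to the linear scale and increased by a pseudocount of 34.1 (the 10th percentile), and log2 values of 13966 probe sets were fitted with 8 group means in limma 3.58.1 (R 4.3.3), with Benjamini-Hochberg adjustment over all of them within each contrast. The fit left 27 residual degrees of freedom, and all groups share 1 estimate of the spread. Symbols came from the platform annotation, which paired 12443 probe sets with 1 gene, 327 with several and 1196 with none, and 12394 were updated through RefSeq. A gene was represented by its probe set of highest mean. Separate cultures are not stated for the aging study, and no vials are recorded for the stress controls. In contrasts with these groups, p-values measure only the spread between arrays.

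The members, gene lists and tests were chosen with earlier results of these data known. Named were all member probe sets, cyc and cwo, up to 4 called members of each other list per contrast by size of change, and the 3 probe sets most correlated with each member. A heat stress array that the authors left out for poor quality was not analysed here. The labels and the study's methods differ on the age at which hyperoxia began and on the amount of RNA labelled; the labels were followed for the age. Same-numbered arrays did not deviate together. Alternatives were another scaling, pseudocount, filter, fit, call rule and each array left out, and the fit was tested on simulated data. No sequences are shown.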

Additional observations from a re-analysis of the deposited data

Results flagged for a closer look

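Of 77 groups of 4 to 6 arrays of the clock, cyc and cwo probe sets, 10 held 1 array whose gap to its nearest neighbour was large for the range of the group, where chance flags about 1 in 20. vri in stress control replicate 1 was 3215, against 3601 for the nearest array, and cry in stress control replicate 2 was 3198, against 3573. These are small gaps in tight groups. The tim probe set 151485_s_at was 414 in ionizing radiation replicate 1, against 1108, and 52.7 in old replicate 4, against 170.3. The tim probe set 151484_i_at was 84.1 in hyperoxia replicate 1, against 10.2. Pdp1 was 1388 in sugar replicate 3, against 1591, and cwo 151642_at was 1268 on the same array, against 1708. The cwo probe set 142602_at was 63.6 in sugar replicate 2 (nearest 210.2), 57.9 in young control replicate 5 (nearest 74.2) and 51.1 in hyperoxia replicate 4 (nearest 74.5). All are normalized signals, and 9 of the 10 arrays were the lowest of their group. Their part in the group means is given by the values with each array left out.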

How the results depend on the processing

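Array quality was uneven (old replicate 2, ionizing radiation replicate 1). Over the alternatives other than a left-out array, 847 fold changes kept direction and side of the threshold, 25 lost their call, 8 gained one and 6 turned sign. With an array left out, 993 did not change in this way, 49 lost their call, 4 gained one and 43 turned sign. The cause was not tested for any of them. The clock probe sets called in aging were 0 with the pseudocount at the 25th percentile or a fit of only the 2 groups compared, and 2 without old replicate 2 and ionizing radiation replicate 1 (an alternative chosen after seeing the data, as was the quantile step on linear signals), against 1. In hydrogen peroxide they were 2 with that pseudocount or the fit of 2 groups, against 1. In sugar they were 1 with that pseudocount, with low probe sets left out or with the fit of 2 groups, against 0. In radiation against sugar they were 1 with scaling to a trimmed mean, with the fit of 2 groups or with the replicate number as a block (replicate block), against 2; the lost call was tim 151485_s_at. Replicate numbers did not pair the arrays, since correlations of deviations between same-numbered arrays were -0.092 to 0.082, and the block changed no other call of a clock probe set. It also ended the calls of Lip4 in aging and Cyp18a1 in peroxide against sugar. Beyond those given with the results, the fit of 2 groups ended the calls of Atx2 in aging (adjusted p = 0.0178), ple in hyperoxia (adjusted p = 0.0124), jet in radiation against sugar (adjusted p = 0.0117), and Pdfr and Cyp18a1 in peroxide against sugar (adjusted p = 0.0205 and 0.0536), and the larger pseudocount those of ITP in aging (0.55), Usp8 in hyperoxia (0.55) and Pdfr in peroxide against sugar (0.52). The evening minus morning difference in hyperoxia was 0.88 with the pseudocount at the 25th percentile, against 1.10, and with Pdp1 among the evening genes it was 0.58 in radiation, against 0.71, and 0.72 in radiation against sugar, against 0.89. Signs turned for tim 151485_s_at in aging (-0.084) and for cwo 151642_at in radiation against sugar (0.079) without the same 2 arrays, for cwo 151642_at there with scaling (0.0069), and for tim 151484_i_at in heat stress with scaling (0.038), the block (0.0010) or the linear quantile step (0.00032), all uncalled values near 0. With each array left out in turn, the clock probe sets called were 1 to 2 in aging, 2 to 4 in hyperoxia, 3 to 4 in heat stress and 1 to 2 in radiation against sugar. Over these, log2 fold changes that turned sign, none of them called, ranged in aging from -0.044 to 0.23 for cry, -0.031 to 0.26 for Pdp1, -0.085 to 0.0069 for tim and -0.084 to 0.36 for tim 151485_s_at. In heat stress they ranged from -0.21 to 0.27 for cwo 142602_at, -0.18 to 0.011 for Pdp1, -0.26 to 0.27 for tim 151484_i_at and -0.056 to 0.20 for vri, and in hyperoxia from -0.0093 to 0.11 for cwo 142602_at, -0.17 to 0.18 for tim 151484_i_at and -0.014 to 0.26 for tim 151485_s_at. In hydrogen peroxide they ranged from -0.060 to 0.27 for cwo 142602_at, -0.091 to 0.10 for cyc and -0.27 to 0.15 for per, and against sugar from -0.18 to 0.070 for cyc and -0.072 to 0.35 for per. They ranged from -0.072 to 0.18 for cyc in sugar and from -0.15 to 0.079 for cwo 151642_at in radiation against sugar.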
